A study of Mus musculus with 15 samples.

Results

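The genes described here are 36 imprinted genes, which were named one by one from knowledge of mouse imprinting, with earlier results of these data known. They were taken from 53337 genes of the E18 dorsal forebrain, after the transcript levels deposited for each library had been added up to genes. The samples were offspring of C57BL/6J dams that carried a subcutaneous minipump, which delivered arginine vasopressin (AVP), the hormone used here to model preeclampsia, or saline from before breeding and throughout gestation. Messenger RNA was sequenced at embryonic day 18 from dorsal forebrain, with 1 library per sample. There were 4 libraries of AVP males and 4 of saline males, 3 of AVP females and 4 of saline females, and a library is called here by its group and the number in its title. The strain is inbred, so reads from the maternal and the paternal allele could not be told apart, and every level below is the sum of both. Per the study, the libraries of a group came from separate litters, while males and females of a treatment came from shared litters. No label says which libraries were littermates, so litter could not be a term in the fits over both sexes, of the sexes and of the interaction.

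The values are TPM, a transcript abundance corrected for length that adds up to the same total in every library, so the depth behind each value is unknown. The library labelled saline male 12 carried Xist at 266 TPM and the Y-linked genes at 0.489 TPM in sum, whereas the other libraries labelled male carried Y-linked genes at 102 to 155 TPM. It was kept under its label. Values without it follow for the single members described in the male, interaction and sex comparisons. Male counts and medians by class, and male values of the further gene lists, are given with it only. The exception is the ranges of the class differences with each library left out. All 9 dorsal forebrain markers, Emx1 and Tbr1 among them, were detected, with summed levels of 969.5 to 1365 TPM, and 1 of 10 hypothalamic markers was. The libraries held varying amounts of other tissue. The 15 meningeal fibroblast markers summed to 74.6 to 264 TPM, the 12 choroid plexus markers to 9.65 to 2289 TPM and the 10 striatal markers to 24.6 to 162 TPM. The numbers in the labels form 2 runs with a gap between them, libraries 1 to 7 and libraries 8 to 15. No label calls the runs a batch. They are used below to repeat comparisons within each, a step that was added after the data were seen. The 3 AVP libraries of the first run stood apart from its 4 saline libraries: 1069 of 15113 genes tested (7.07%) differed between them over both sexes at an adjusted p under 0.05, and 3 of 15334 genes (0.0196%) did so in the second run.

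Imprinted genes are expressed mainly from the allele inherited from one parent. They lie in clusters, each under an imprint control region whose DNA methylation was set in the egg or the sperm and is kept afterwards by the zinc finger proteins ZFP57 and ZFP445 with their partner TRIM28. Many of them set fetal growth: Igf2, from the paternal allele, encodes an insulin-like growth factor, while Cdkn1c, Grb10 and Igf2r, largely from the maternal allele, restrain growth. In brain, Grb10 and Inpp5f have a paternally expressed neuronal form, and Ube3a is silent on the paternal allele in neurons. Igf2 is an exception to the general rule, since it is active on both alleles in the choroid plexus and the leptomeninges, the membranes that cover the brain. By these textbook roles 8 genes were classed as maternally expressed, 20 as paternally expressed and 8 as mixed, that is, with a parental bias that depends on tissue or transcript. In a second grouping, by tissue, 18 were classed as neural, 8 as meningeal and 10 as other. The 8 called meningeal are Igf2, H19, Dlk1, Cdkn1c, Phlda2, Grb10, Igf2r and Mest. The tissue classes were assigned with earlier results of these data known, so they are not an independent grouping. Of the 36, 15 lie on chromosome 7.

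Several of these genes start at more than 1 site, and the sites differ in parental bias. The windows below run from 250 bases before to 50 bases after a RefSeq start (GRCm38.p6, 5′ to 3′ on the gene's strand). Those of Grb10 and Mest are shown because levels from these starts are given below, and those of Igf2, Snrpn and Meg3 because they are starts of genes that the results turn on or lie in or next to a control region. Capitals mark TGCCGC or its reverse complement GCGGCA, the letters that ZFP57 reads when their CpG is methylated.
Igf2, main coding start, no copy, chr7:142657447-142657746, minus strand: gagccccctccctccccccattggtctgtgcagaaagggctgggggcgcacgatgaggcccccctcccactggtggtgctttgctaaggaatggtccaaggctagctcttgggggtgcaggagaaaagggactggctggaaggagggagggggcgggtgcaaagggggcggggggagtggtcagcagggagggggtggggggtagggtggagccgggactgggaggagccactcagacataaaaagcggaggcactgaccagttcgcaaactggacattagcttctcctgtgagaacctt
Grb10, upstream start, 1 copy, chr11:12037371-12037670, minus strand: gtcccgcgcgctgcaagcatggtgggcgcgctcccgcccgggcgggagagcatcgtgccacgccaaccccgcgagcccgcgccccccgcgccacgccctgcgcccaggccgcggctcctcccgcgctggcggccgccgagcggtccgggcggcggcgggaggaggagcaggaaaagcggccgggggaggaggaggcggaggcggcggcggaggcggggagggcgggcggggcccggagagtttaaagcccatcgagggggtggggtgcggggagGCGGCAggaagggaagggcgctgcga
Grb10, downstream start, no copy, chr11:12027922-12028221, minus strand: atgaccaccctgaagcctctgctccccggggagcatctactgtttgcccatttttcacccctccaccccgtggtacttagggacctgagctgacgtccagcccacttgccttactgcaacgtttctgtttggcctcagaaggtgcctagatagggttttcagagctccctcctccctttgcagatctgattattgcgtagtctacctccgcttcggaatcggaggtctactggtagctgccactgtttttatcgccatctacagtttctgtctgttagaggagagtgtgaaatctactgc
Mest, upstream start, no copy, chr6:30733256-30733555, plus strand: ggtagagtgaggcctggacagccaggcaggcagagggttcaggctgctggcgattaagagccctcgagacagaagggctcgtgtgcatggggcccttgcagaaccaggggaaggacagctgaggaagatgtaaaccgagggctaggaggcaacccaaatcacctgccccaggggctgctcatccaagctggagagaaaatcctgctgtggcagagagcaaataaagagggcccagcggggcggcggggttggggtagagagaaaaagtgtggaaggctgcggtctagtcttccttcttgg
Mest, downstream start, 2 copies, chr6:30737800-30738099, plus strand: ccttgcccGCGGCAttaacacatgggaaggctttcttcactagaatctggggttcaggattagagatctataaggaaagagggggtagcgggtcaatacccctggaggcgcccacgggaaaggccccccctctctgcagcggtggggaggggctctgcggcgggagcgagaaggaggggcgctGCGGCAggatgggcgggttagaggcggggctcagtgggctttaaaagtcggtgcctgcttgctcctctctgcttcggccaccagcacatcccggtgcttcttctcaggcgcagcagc
Snrpn and Snurf, shared start, 1 copy, chr7:60005150-60005449, minus strand: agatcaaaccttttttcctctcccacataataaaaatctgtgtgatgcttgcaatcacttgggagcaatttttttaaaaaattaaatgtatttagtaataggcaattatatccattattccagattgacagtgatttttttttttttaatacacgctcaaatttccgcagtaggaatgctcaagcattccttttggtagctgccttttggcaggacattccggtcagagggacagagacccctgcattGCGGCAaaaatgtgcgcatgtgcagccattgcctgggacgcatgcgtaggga
Meg3, main start, 1 copy, chr12:109540746-109541045, plus strand: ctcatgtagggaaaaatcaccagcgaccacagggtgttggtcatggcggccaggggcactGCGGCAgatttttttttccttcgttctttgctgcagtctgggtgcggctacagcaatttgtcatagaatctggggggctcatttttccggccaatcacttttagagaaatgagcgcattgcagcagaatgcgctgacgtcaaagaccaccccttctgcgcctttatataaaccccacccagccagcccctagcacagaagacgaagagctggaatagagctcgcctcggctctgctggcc

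The upstream Grb10 window held 45 CpG, the Mest downstream window 17 and the Meg3 window 13, while the downstream Grb10 window held 9, the upstream Mest window 8 and the Igf2 and Snrpn windows 7 each. The median was 7 over the 32817 distinct windows of all genes and 13.5 over those of the imprinted genes. Windows were found for 28 of the 36 genes. Among their 42 distinct windows, 10 (23.8%) held the 6 letters, against 11.6% of all windows. The letters contain a CpG, of which the imprinted windows had more, and 2 of the 10 are Mest windows that overlap almost fully. The genes with a match were Grb10, Igf2 (at a start upstream of the one shown), Meg3, Mest, Nap1l5, Nnat, Plagl1, Snrpn, Snurf and Zim1. A match is a description of the letters in these windows, and no binding or methylation was measured.

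Several of these imprinted genes were among the more abundant RNAs of the dorsal forebrain, while others were low. Among genes with a mean of at least 1 TPM, Nnat lay at percentile 99.6 and Ddc at percentile 5.24. Of the 36, 32 had a mean of at least 1 TPM, and 10 had a mean of at least 100 TPM, a level reached by 1558 (9.996%) of the 15586 genes with a mean of at least 1 TPM. Their summed level was 4615 to 6334 TPM per library. Nnat, which encodes the small membrane protein neuronatin and lies in an intron of Blcap, was the highest, at 1103 to 2203 TPM. Gnas, the locus of the stimulatory G protein alpha subunit, followed at 818 to 1078.5 TPM. The next were the noncoding RNAs of the Dlk1-Dio3 cluster, Meg3 at 289 to 1107 TPM and Rian, the host of small nucleolar RNAs, at 474 to 874 TPM. The ranges of Meg3 and Rian overlapped across their whole middle part, and they do not differ beyond their spread.

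**Figure D1:**
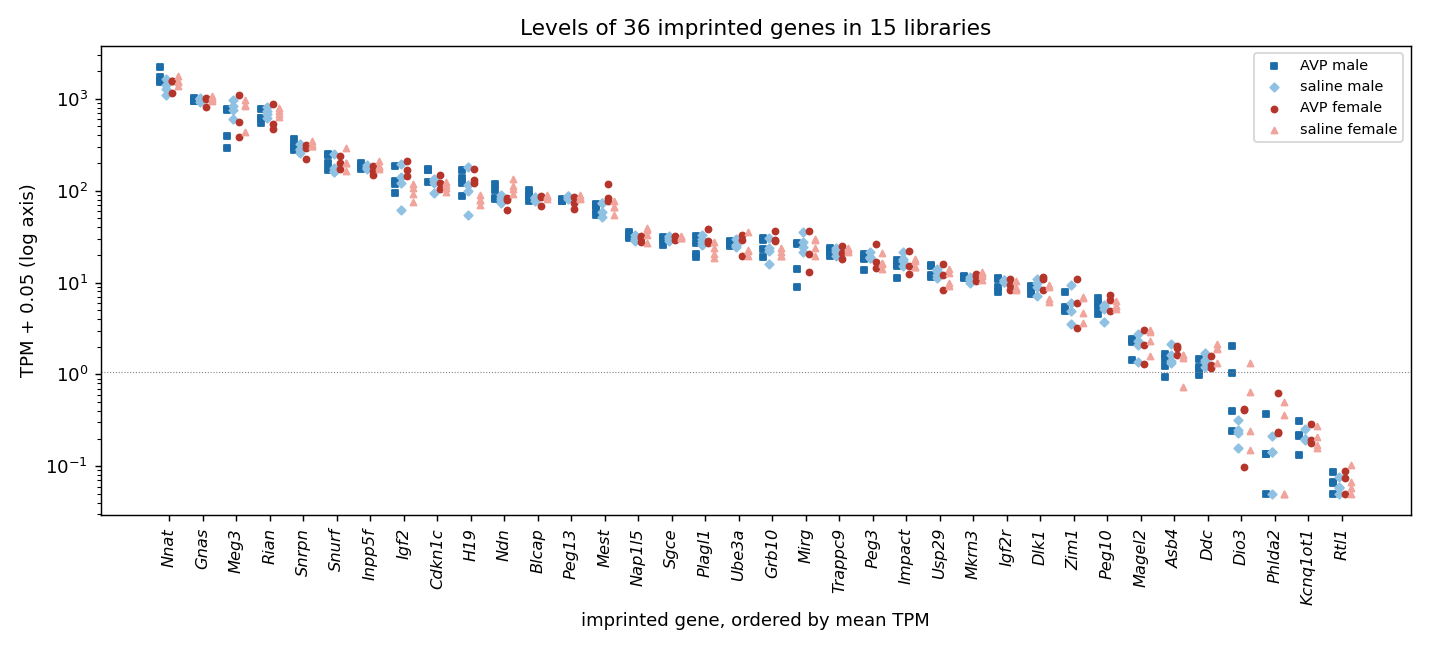
TPM of each imprinted gene (log axis, 0.05 added so that zeros can be drawn), 1 point per library, in 4 groups, with genes ordered by mean; the dotted line marks 1 TPM. Levels run from 1534 TPM on average for Nnat down to 0.0168 TPM for Rtl1, and for most genes the 4 groups overlap.

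The genes of the Snrpn cluster, most of which are silent on the maternal allele and are lost in Prader-Willi syndrome, spanned a wide range. Snrpn, a spliceosomal protein gene, was at 220 to 362 TPM. Snurf, at 161 to 294 TPM, shares all 216 of its exonic bases with Snrpn on the same strand, so how reads were divided between them is uncertain. Ndn, a MAGE protein gene, was at 62.3 to 136 TPM, the ubiquitin ligase gene Mkrn3 at 9.81 to 12.97 TPM and Magel2 at 1.23 to 3.01 TPM. Ube3a, the maternally biased ubiquitin ligase of the same cluster, was at 19.5 to 35.7 TPM.

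The growth genes lay in the middle. Igf2 was at 61.5 to 210 TPM, H19, the maternally expressed RNA that shares its enhancers, at 53.9 to 182 TPM, and Cdkn1c, a cyclin-dependent kinase inhibitor, at 94.5 to 173 TPM. Mest, a hydrolase-like gene, was at 51.9 to 118 TPM, Plagl1, a zinc finger transcription factor, at 18.5 to 37.8 TPM and Grb10, an adaptor that restrains insulin and IGF receptors, at 16.0 to 36.6 TPM. Igf2r, which clears IGF2 from the cell surface, was at 7.76 to 11.2 TPM and Dlk1, a Delta-like membrane protein, at 6.02 to 11.6 TPM.

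Among the other paternally expressed genes, Peg13 was at 62.8 to 90.4 TPM, Nap1l5 at 27.0 to 39.0 TPM, Sgce at 25.8 to 32.3 TPM, Peg3 at 13.6 to 26.5 TPM, Impact at 11.1 to 22.1 TPM, Usp29 at 8.23 to 15.9 TPM and Peg10 at 3.71 to 7.25 TPM. The mixed genes Inpp5f, Blcap, Trappc9 and Ddc were at 147 to 213, 67.5 to 103, 18.1 to 24.6 and 0.931 to 2.10 TPM. The maternally expressed Mirg, Zim1 and Asb4 were at 8.97 to 36.1, 3.17 to 10.97 and 0.679 to 2.09 TPM. The remaining 4 genes, Dio3, Phlda2, Kcnq1ot1 and Rtl1, had means of 0.479, 0.170, 0.163 and 0.0168 TPM. They were not tested, because a gene had to reach 1 TPM in 50% or more of the libraries of a comparison. Dio3 reached 1 TPM in 2 libraries and the others in none.

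The steadiest genes across all 15 libraries were Sgce, with a coefficient of variation of 5.73%, and Gnas, with 6.06%. Of the 32 genes with a mean of at least 1 TPM, those that varied most were Zim1 at 36.8%, Meg3 at 35.1%, H19 at 34.3%, Igf2 at 33.3% and Mirg at 33.0%. H19 with Igf2, and Meg3 with Mirg, are neighbours in the genome and are described together.

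Igf2 and H19 followed the meninges, as the choice of these genes stated from the outset, so the values of this paragraph are a description without a test. The meningeal score used here is the mean log2(TPM + 0.5) of the 15 fibroblast markers, which include Col3a1, Lum, Foxc1 and Aldh1a2 and neither Igf2 nor H19. Igf2 was lowest, at 61.5 TPM, in saline male 4, which had the lowest score of 1.88. It was at 193 TPM in saline male 5, which had the highest score of 3.53, and at 210 TPM in AVP female 11, with a score of 3.46. H19 stood at 53.9, 182 and 174 TPM in the same libraries. With the group means removed, Igf2 gained 0.99 ± 0.096 and H19 0.94 ± 0.11 (SE, n = 15) log2 units per unit of score. The ratio of H19 to Igf2 stayed between 0.668 and 1.16, with a median of 0.863, while each of the genes spanned more than a 3-fold range. Without the libraries with the scores farthest from the median, saline male 4 and saline female 15, which are the lowest and next lowest, the slopes were 1.15 ± 0.19 and 1.14 ± 0.22. They were 1.01 ± 0.069 and 1.04 ± 0.11 within the first run, 1.08 ± 0.43 and 1.48 ± 0.38 within the second, and 0.9998 ± 0.098 and 0.96 ± 0.11 without saline male 12.

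In a bulk sample more cells of a type and more RNA per cell cannot be told apart, so the score may reflect either. The score of the choroid plexus, in which Igf2 is also known to be active, gave no such pattern. Of the 12 choroid plexus markers 5 were detected, so this score rests in part on low values. The part of this tissue in the levels of Igf2 and H19 was therefore not tested. Per unit of the choroid plexus score Igf2 changed by 0.062 ± 0.14 and H19 by 0.059 ± 0.14, and with that score added to the model the meningeal slopes were 1.01 ± 0.078 and 0.96 ± 0.10.

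Grb10 and Cdkn1c showed slopes on the meningeal score that were smaller and did not pass the threshold. Grb10 was at 16.0 TPM in saline male 4, with the lowest score, and at 30.2 and 28.4 TPM in saline male 5 and AVP female 11, with the highest, and its slope was 0.47 ± 0.12 (limma, adjusted p = 0.151). Cdkn1c was at 94.5, 132 and 146 TPM in the same libraries, with its highest level of 173 TPM in AVP male 1 at a score of 2.94, and its slope was 0.34 ± 0.11 (adjusted p = 0.307). Grb10 passed when the group means were not removed, with a slope of 0.55 ± 0.11 and an adjusted p of 0.00878, and Cdkn1c after quantile normalization, with 0.46 ± 0.0995 and 0.0461. Across all genes, 126 of 15078 (0.836%) passed, all with positive slopes, and of the 32 imprinted genes tested 2 did, Igf2 and H19, the pair that the choice of these genes had named. Without saline male 4 the count was 3 over all genes and 0 over the imprinted genes. By unadjusted p under 0.05 there were 4 imprinted genes, these and Grb10 and Cdkn1c, all with positive slopes, against 4.61% of all genes in that direction. Of all genes with such a p 81.6% rose, and with median-of-ratios scaling 69% did.

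**Figure D2:**
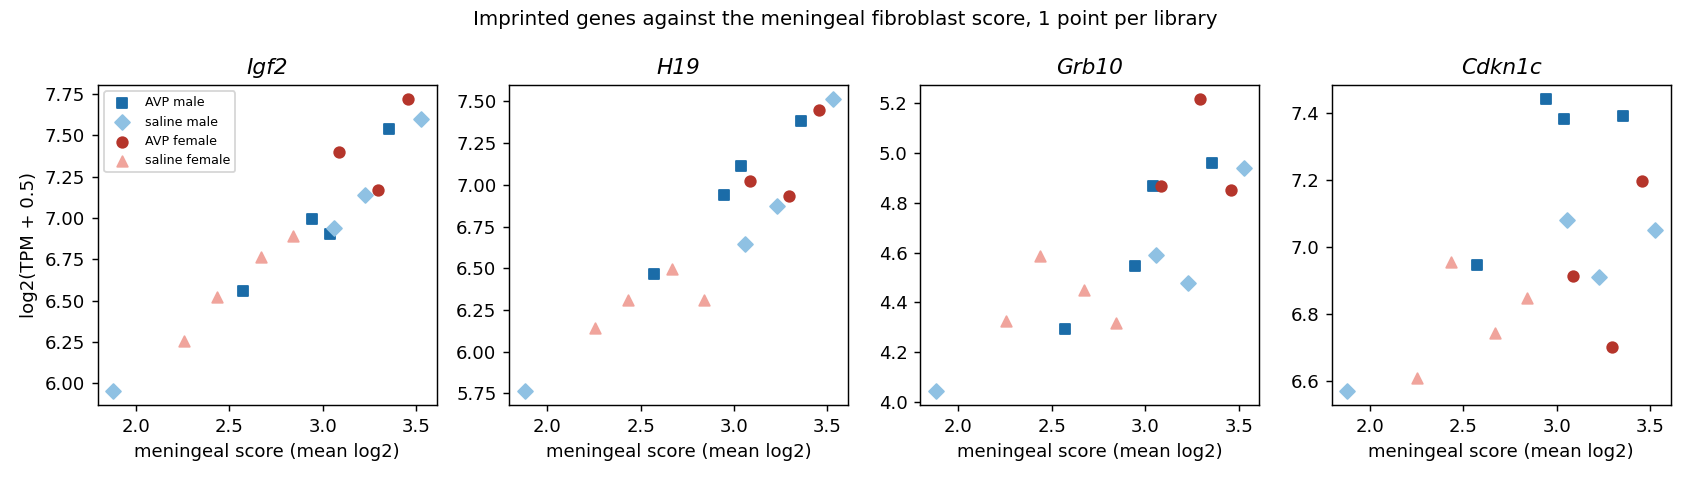
log2(TPM + 0.5) of Igf2, H19, Grb10 and Cdkn1c against the meningeal fibroblast score, 1 point per library, coloured by group. Igf2 and H19 lie close to a line with a slope near 1, Grb10 and Cdkn1c scatter more widely, and the 3 AVP females (scores 3.09 to 3.46) lie to the right of the 4 saline females (2.25 to 2.84).

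All 7 tested meningeal genes had a positive slope on the meningeal score, with a median of 0.34. The 5 that remain without Igf2 and H19 had a median of 0.18, with Igf2r the lowest at 0.050. Of the 18 neural genes 5 had a positive and 13 a negative slope, with a median of −0.047, and none of them reached an unadjusted p under 0.05. The lowest neural slopes were those of the Dlk1-Dio3 noncoding RNAs, Magel2 and Usp29, down to −0.27 for Mirg. The median over all 15078 genes was −0.025, and 5.65% of them had an unadjusted p under 0.05. On the choroid plexus score 14 of 18 neural genes had a negative slope, with a median of −0.062 against −0.043 over all genes. The smallest unadjusted p-values there were those of Impact, a regulator of the kinase GCN2, with −0.23 ± 0.061 (adjusted p = 0.315), and of the zinc finger gene Peg3, with −0.21 ± 0.067 (adjusted p = 0.330). They were the 2 of 32 with an unadjusted p under 0.05, against 12.5% of all genes (2.61% rising and 9.88% falling with the score). Of those genes 79.1% fell, and with median-of-ratios scaling 35% did. Neither passed, and 6 of 15078 genes (0.0398%) did. On the striatal score 0 imprinted genes passed, against 32 of all genes (0.212%). Cdkn1c, with a slope of −0.17 ± 0.059, and Snrpn, with 0.12 ± 0.049 (adjusted p = 0.9999 for each), were the 2 with an unadjusted p under 0.05, against 3.2% of all genes (2.31% rising and 0.889% falling). Of those genes 72.2% rose, and with median-of-ratios scaling 58.2% did. On this score 14 of 18 neural genes had a positive slope with a median of 0.024 against 0.014 over all genes.

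**Figure D3:**
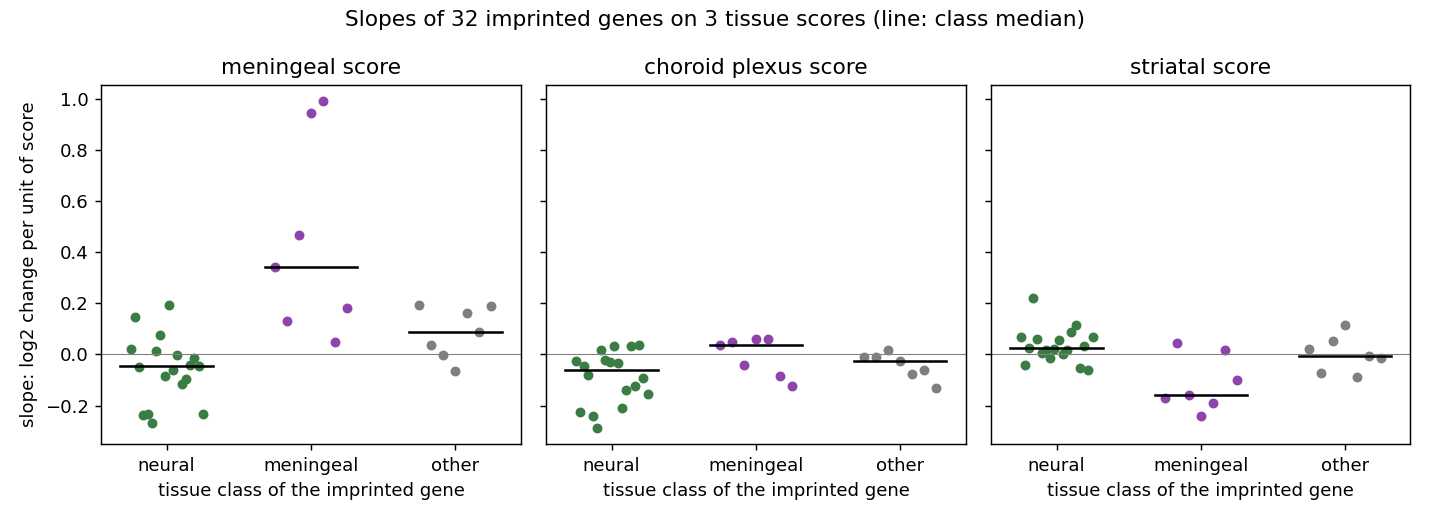
Slopes of the 32 tested imprinted genes on the meningeal, choroid plexus and striatal scores (log2 change per unit of score, group means removed), by tissue class; lines are class medians. In the left panel the meningeal genes have a median of 0.34 and the neural genes one of −0.047; in the middle and right panels the class medians run from −0.16 to 0.035.

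The transcripts of the compound loci showed which starts were in use. Most of the Grb10 level came from the upstream start, whose CpG-rich window is printed above. Transcripts from it were at 13.4 to 28.4 TPM, 69.0 to 97.2% of the gene. Those from the downstream starts, which include the window shown, were at 0.564 to 5.89 TPM, 2.40 to 30.3% of the gene. The downstream form is the one known as paternal and neuronal, and in these libraries it was the minor one. The highest value of that form, 5.89 TPM, was in saline female 6 and the next, 5.67 TPM, in AVP female 10.

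Inpp5f showed the reverse order. Its short transcripts from the downstream starts, the paternally expressed form in brain, were at 135 to 198 TPM, 87.9 to 93.3% of the gene. The 2 transcripts from the upstream start, which include the full-length form, were at 4.10 to 11.2 TPM in sum. At Gnas the 4 transcripts from the Gs alpha start carried 96.3 to 98.0% of the level. The maternally expressed Nesp transcripts were at 4.32 to 17.7 TPM, the paternally expressed exon 1A transcripts at 6.53 to 17.5 TPM and those of the paternally expressed XLas start at 0.239 to 1.59 TPM. Mest used its upstream and downstream starts about equally, at 20.2 to 58.0 TPM and 23.4 to 54.1 TPM. The downstream window, with 17 CpG and 2 copies of the marked letters, is the imprinted one.

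In females 6 imprinted genes had an unadjusted p under 0.05 between AVP and saline, and 0 of 32 passed at an adjusted p under 0.05. Igf2, H19, Grb10, Mest and Plagl1 were higher in AVP females and Ndn was lower. The 6 of 32 (18.8%) stand against 683 of 15132 genes (4.51%) with an unadjusted p under 0.05, with 2.34% of all genes higher and 2.17% lower. The members were chosen with earlier results of these data known, and Igf2 and H19 moved together, so this share is a description. Of the 6, 4 are among the 7 tested meningeal genes, 1 is among the 18 neural genes and 1 among the 7 others. None of all genes passed the adjusted threshold in limma. In 5 of the 32 every AVP female was above every saline female, against 421 of all genes (2.78%), and in 1 of 32 every AVP female was below, against 419 (2.77%), so the groups did not overlap in 6 of 32 members and in 5.55% of all genes. The genes above were Igf2, H19, Grb10, Mest and Asb4, the gene below was Ndn, and the median over all genes was −0.051 and that of the 32 was −0.035. Asb4 counts here only by a hair, with 1.59017 TPM in AVP female 10 and 1.58988 TPM in saline female 6. It lay near the 1 TPM limit, and its unadjusted p in limma was 0.183.

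Igf2 was at 168, 143 and 210 TPM in AVP females 3, 10 and 11 and at 118, 108, 91.3 and 76.0 TPM in saline females 6, 7, 14 and 15. All AVP females were above all saline females. The log2 difference was 0.82 ± 0.18 (adjusted p = 0.998), and an exact two-sided permutation test gave p = 0.0286, the smallest that 3 against 4 libraries allow.

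H19 was at 129, 122 and 174 TPM in the AVP females and at 78.7, 89.6, 78.8 and 70.2 TPM in the saline females. The groups did not overlap, and the log2 difference was 0.82 ± 0.14 (adjusted p = 0.998; exact permutation p = 0.0286). Igf2 and H19 moved together across the libraries and were chosen with earlier results of these data known. The meningeal score also separated the same female groups. The exact p-values of Igf2 and H19 are therefore neither separate from each other nor independent evidence.

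Grb10 was at 28.7, 36.6 and 28.4 TPM in the AVP females and at 19.4, 21.4, 23.5 and 19.6 TPM in the saline females. The groups did not overlap, and the log2 difference was 0.56 ± 0.13 (adjusted p = 0.999; exact permutation p = 0.0286). Grb10 is on the list of genes that the study drew from these same females, so its direction here is not independent evidence. The study made that list with another method (sleuth, Wald test, false discovery rate under 0.05). By limma neither Grb10 nor any other gene passed in females. Transcripts from its upstream start were at 26.6, 28.4 and 24.8 TPM in the AVP females and at 13.4, 18.5, 22.8 and 17.5 TPM in the saline females, which did not overlap either.

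Ndn, the paternally expressed neuronal gene, was lower in AVP females, at 78.5, 82.8 and 62.3 TPM in the AVP females and at 113, 91.3, 103 and 136 TPM in the saline females. The groups did not overlap, and the log2 difference was −0.56 ± 0.15 (adjusted p = 0.999). Mest was at 77.2, 118 and 83.4 TPM against 54.4, 66.4, 66.8 and 76.6 TPM, with a difference of 0.47 ± 0.17 (adjusted p = 0.999), which was 0.29 without AVP female 10. Its groups did not overlap, though AVP female 3 and saline female 15 differed by less than 1 TPM. Plagl1 was at 27.0, 37.8 and 28.1 TPM against 18.5, 27.5, 20.6 and 23.9 TPM. Its groups overlapped, since saline female 7 was above AVP female 3, and the difference was 0.44 ± 0.17 (adjusted p = 0.999), or 0.29 without AVP female 10.

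**Figure D4:**
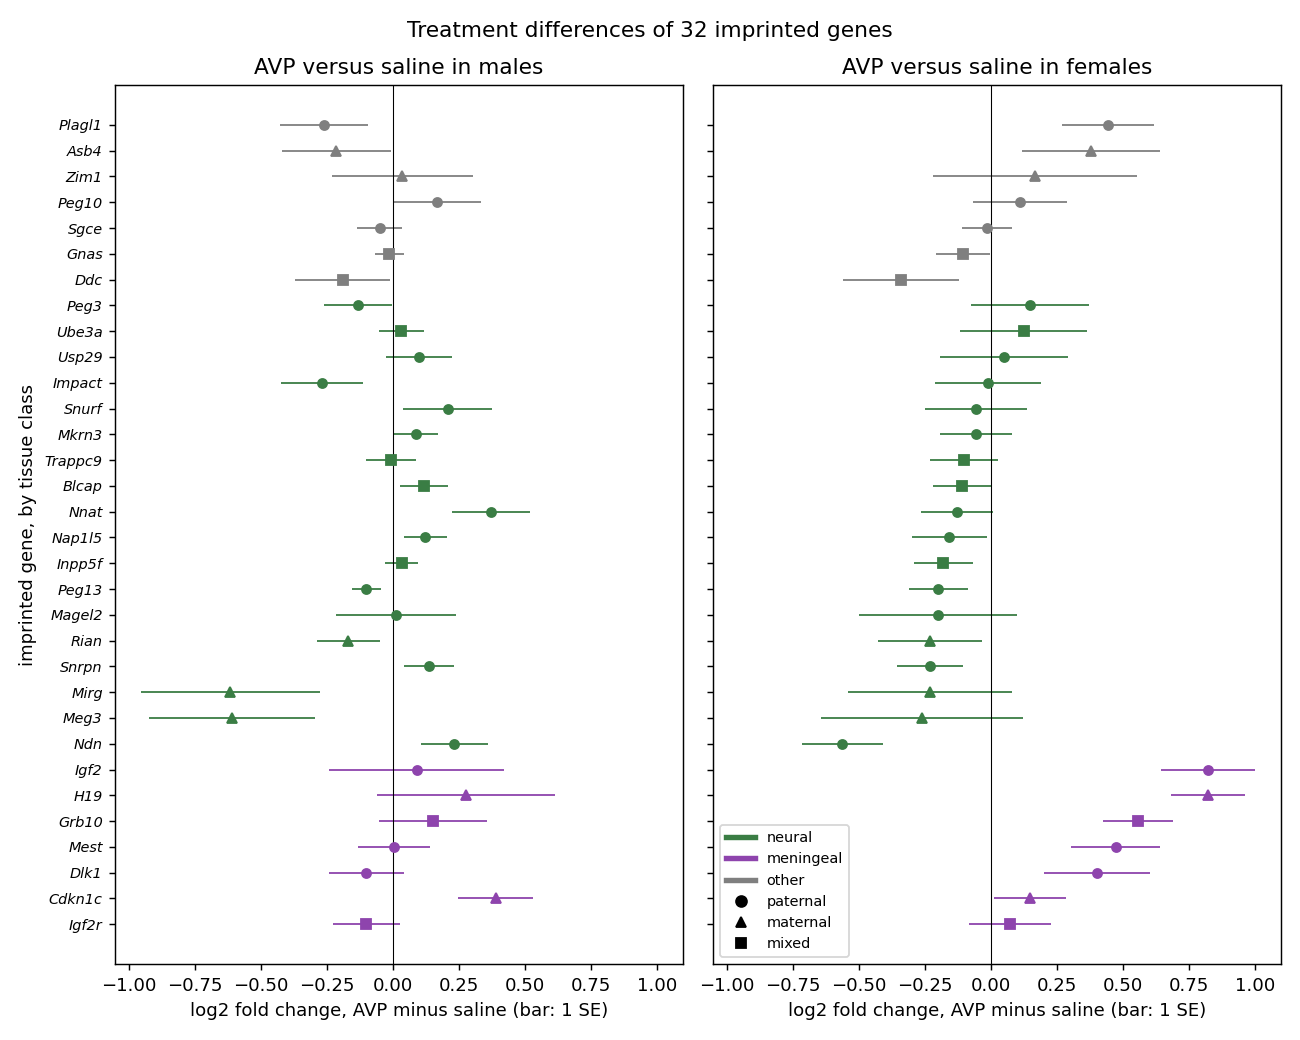
log2 fold change of the 32 tested imprinted genes, AVP minus saline, in males (left) and females (right), with bars of 1 SE; colours give the tissue class and symbols the parental class. In females the 7 meningeal genes lie between 0.072 and 0.82 and 15 of the 18 neural genes lie below 0; in males both classes straddle 0 on this scale, whereas with median-of-ratios scaling or quantile normalization all 7 meningeal genes are above 0.

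Markers of some other tissues differed between the same females, and those of others overlapped. The 15 meningeal markers, 13 or 14 of which were detected in each female group, summed to 190 to 264 TPM in AVP females and to 112 to 151 TPM in saline females. The groups did not overlap in endothelial (207 to 220 against 127 to 194 TPM), mural (92.6 to 99.0 against 64.0 to 83.1 TPM) or border macrophage markers (54.0 to 64.0 against 27.8 to 38.7 TPM) either. Dorsal forebrain markers overlapped, at 1135 to 1258 against 1004 to 1301 TPM. So did choroid plexus (29.1 to 2289 against 9.65 to 965 TPM) and striatal markers (35.2 to 114 against 60.7 to 139 TPM). Microglial (44.7 to 51.6 against 37.7 to 57.6 TPM) and red blood cell markers (5129 to 13658 against 2241 to 5707 TPM) overlapped too. With the meningeal score in the model the difference was 0.10 ± 0.27 for Igf2, 0.43 ± 0.28 for H19 and −0.13 ± 0.30 for Ndn. It was 0.60 ± 0.31 for Grb10, 0.78 ± 0.36 for Mest and 0.55 ± 0.39 for Plagl1, and 0 of the 32 genes had an unadjusted p under 0.05. Because the score separates the female groups, the model has little left with which to tell treatment and score apart. The part of the other tissues was not tested. The first run holds 1 AVP female and 2 saline females, so its value rests on a lone AVP library that is assumed to vary like the others. Within the first and the second run the differences were 0.58 and 1.052 for Igf2, 0.62 and 0.96 for H19, 0.48 and 0.58 for Grb10, and −0.37 and −0.72 for Ndn.

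In males 2 of the 32 genes (6.25%) had an unadjusted p under 0.05, Cdkn1c and Nnat, both higher in AVP males, and 0 passed at an adjusted p under 0.05. Over all genes 2057 of 15271 (13.5%) had an unadjusted p under 0.05, 1.11% of all genes as higher and 12.4% as lower, and 1 (0.00655%) passed. Most male genes read lower in AVP: the median over all genes was −0.10, and 91.8% of those with an unadjusted p under 0.05 were lower. That split rests on the scale. With median-of-ratios scaling the median was 0.0033, 43.2% were lower, and 8 of the 32 imprinted genes had an unadjusted p under 0.05 against 11.5% of all genes. After quantile normalization 50.1% were lower and the count of imprinted genes was 5. Both settings place the male differences relative to a shift of about −0.10.

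Cdkn1c was at 173, 167, 123 and 166 TPM in AVP males 1, 2, 8 and 9, whereas saline males 4, 5, 12 and 13 had 94.5, 132, 135 and 120 TPM. The groups overlapped only through AVP male 8. The log2 difference was 0.39 ± 0.14 (adjusted p = 0.320), and it was 0.61 ± 0.17 within the first run, 0.17 ± 0.17 within the second and 0.45 ± 0.15 without saline male 12. Nnat was at 1537, 2203, 1565 and 1720 TPM in the AVP males, against 1270, 1659, 1407 and 1103 TPM among saline males. Only saline male 5 reached into the AVP range. The difference was 0.37 ± 0.15 (adjusted p = 0.336), and it was 0.34 ± 0.22 and 0.40 ± 0.14 within the 2 runs and 0.39 ± 0.17 without saline male 12. Without that library 3 of the 32 genes had an unadjusted p under 0.05, Snurf being the third, and 0 passed.

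Ndn was at 100.3, 119, 84.0 and 80.6 TPM in the AVP males, against 89.1, 79.5, 82.2 and 73.0 TPM among saline males, with overlap and a difference of 0.23 ± 0.13 (adjusted p = 0.437), which was 0.12 without AVP male 2 and 0.24 without saline male 12. Peg13, a noncoding RNA within Trappc9, was the 1 member whose male groups did not overlap. It was at 77.9, 80.2, 77.3 and 79.6 TPM in the AVP males, against 88.2, 80.9, 86.9 and 82.4 TPM among saline males, with every AVP male below every saline male, as in 998 of all genes (6.54%). The groups did not overlap in 7.27% of all genes, with 0.733% above and no member above. Its difference of −0.10 ± 0.055 (adjusted p = 0.437) equals the shift of all genes and was 0.010 ± 0.058 with median-of-ratios scaling and −0.089 ± 0.064 without saline male 12.

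Igf2, H19 and Grb10 showed no separation in males. Igf2 was at 127, 185, 93.7 and 119 TPM in the AVP males, against 61.5, 193, 122 and 141 TPM among saline males (log2 difference 0.089, exact two-sided permutation p = 0.943). H19 was at 122, 167, 87.8 and 138 TPM against 53.9, 182, 99.8 and 116 TPM (0.28, exact permutation p = 0.571). Grb10 was at 22.9, 30.6, 19.1 and 28.6 TPM against 16.0, 30.2, 23.6 and 21.8 TPM (0.15, exact permutation p = 0.571). The smallest p that 4 against 4 libraries allow is 0.0286. Without saline male 12 the differences were 0.0996, 0.26 and 0.18. The male meningeal scores overlapped, at 2.57 to 3.36 in AVP and 1.88 to 3.53 in saline.

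Meg3 and Mirg, both read from the maternal allele of the Dlk1-Dio3 cluster, had the most negative male differences, −0.61 ± 0.32 and −0.62 ± 0.34 (adjusted p = 0.420 and 0.439). They were −0.34 and −0.31 without AVP male 2 and −0.51 and −0.48 without saline male 12. Meg3 was at 395, 289, 763 and 774 TPM in AVP males 1, 2, 8 and 9, against 827, 763, 966 and 601 TPM among saline males. Mirg was at 13.8, 8.97, 26.3 and 27.2 TPM against 27.9, 24.1, 35.8 and 21.5 TPM. The low values were those of AVP males 1 and 2. AVP female 3 was also low, at 382 and 13.1 TPM, and so was saline female 14 for Meg3, at 433 TPM, while every other library had Meg3 at 559 TPM or more. The ratio of Mirg to Meg3 stayed between 0.0285 and 0.0447, and that of Meg3 to Rian ran from 0.471 to 1.33. Rian was at 544, 612 and 532 TPM in AVP males 1 and 2 and AVP female 3.

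AVP males 1 and 2 and AVP female 3 are the AVP libraries of the first run. The split by run was added after the data were seen, so the adjusted p-values within a run are a description. Within that run, over both sexes, Meg3 was lower in AVP (log2 difference −1.20 ± 0.11, adjusted p = 0.0100), as were Mirg (−1.10 ± 0.16, adjusted p = 0.0155) and Rian (−0.37 ± 0.084, adjusted p = 0.0460), 3 of the 32 genes against 7.07% of all genes. Within the second run, where 0 of the 32 passed, Meg3 in males differed by 0.013 ± 0.22. Dlk1, the paternally expressed protein gene that lies next to Meg3 among these genes, showed no low in these libraries, with 7.45, 8.90 and 8.32 TPM.

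Miat and Zfp57, chosen after their values were seen, were low in the same libraries. Miat, a neuronal noncoding RNA on another chromosome, was at 74.5, 59.5, 86.2 and 77.0 TPM in AVP males 1 and 2, AVP female 3 and saline female 14, and at 123 to 235 TPM elsewhere. Zfp57, whose protein keeps imprints methylated, was at 225, 144, 214 and 239 TPM in those 4 libraries and at 319 to 526 TPM elsewhere. What these libraries share was not tested.

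**Figure D5:**
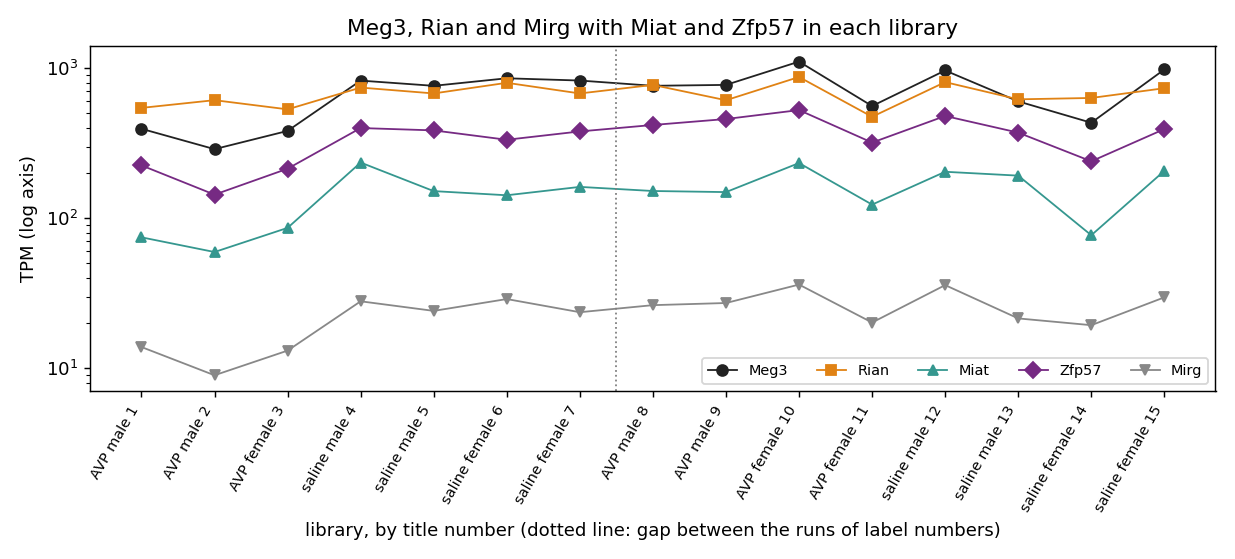
TPM (log axis) of Meg3, Rian and Mirg, with Miat and Zfp57, in each of the 15 libraries in the order of their title numbers; the dotted line marks the gap in the label numbers. Meg3, Miat and Zfp57 are at their 4 lowest levels in AVP male 1, AVP male 2, AVP female 3 and saline female 14, as is Mirg, while Rian varies less.

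No imprinted gene passed in the test of whether treatment acted differently in females and males, nor did any of 15078 genes. By unadjusted p, 4 of 32 (12.5%) were under 0.05, against 624 of all genes (4.14%; 2.52% positive and 1.62% negative). Of those genes 39.1% were negative, and with median-of-ratios scaling 64.5% were, and 7 of the 32 genes had such a p. Ndn had the smallest, with an interaction of −0.79 ± 0.21 log2 units (adjusted p = 0.896), which was −0.74 ± 0.22 in the first run, where 1 library stands for the AVP females, −0.80 ± 0.26 in the second and −0.80 ± 0.22 without saline male 12. Plagl1 stood at 0.71 ± 0.25, Nnat at −0.50 ± 0.21 and Snrpn at −0.37 ± 0.16 (adjusted p = 0.896 for each), and these were 0.64 ± 0.26, −0.52 ± 0.23 and −0.36 ± 0.17 without saline male 12. Without AVP female 11 the Snrpn interaction was −0.22. None of these passed.

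Over both sexes 0 of 32 genes passed and 4 (12.5%) had an unadjusted p under 0.05, against 1564 of 15078 genes (10.4%; 9.69% lower and 0.683% higher in AVP). Of those genes 93.4% were lower, and with median-of-ratios scaling 60.6% were. Cdkn1c was higher in AVP by 0.28 ± 0.10, H19 by 0.53 ± 0.21 and Grb10 by 0.34 ± 0.14, and Peg13 differed by −0.15 ± 0.057 (adjusted p = 0.462, 0.465, 0.465 and 0.464). The Peg13 difference was −0.097 without AVP female 11. With the meningeal score in the model 0 of the 32 had an unadjusted p under 0.05, and H19 stood at 0.19 ± 0.092 and Grb10 at 0.16 ± 0.10. Between the sexes, with treatment in the model, 0 of 32 genes passed and 1 (3.12%) had an unadjusted p under 0.05, against 210 of all genes (1.39%; 0.743% lower in females). That was Cdkn1c, which was lower in females by a log2 difference of −0.22 ± 0.10 (adjusted p = 1). Without saline male 12 it was −0.20 ± 0.11, and 7 of 15164 genes passed, none of them among the 32.

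By parental class the values were small. In females 4 of 7 maternal genes and 7 of 17 paternal genes were higher in AVP, with medians of 0.15 and −0.014. The paternal median turned to 0.015 with median-of-ratios scaling and to 0.029 after quantile normalization, with 9 and 10 of 17 genes higher. In males 3 of 7 maternal and 11 of 17 paternal genes were higher, with medians of −0.17 and 0.084, or −0.057 and 0.19 with median-of-ratios scaling. The medians over all genes were −0.051 in females and −0.10 in males. Within the second run the male maternal minus paternal difference of medians was −0.060 in place of −0.25. The female difference of 0.16 was −0.20 with the meningeal score in the model and −0.077 without AVP female 10. Members of a cluster are not independent, and no test was made of these classes.

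By tissue class the medians lay farther apart in females. All 7 tested meningeal genes were higher in AVP females, with a median of 0.47, and 15 of 18 neural genes were lower, with a median of −0.14, beside 9554 of all 15132 genes that were lower. With median-of-ratios scaling 14 of 18, and after quantile normalization 13 of 18, neural genes were lower, and the meningeal count did not change. Without Igf2 and H19, the other 5 meningeal genes still had a median of 0.40. In males 5 of 7 meningeal and 11 of 18 neural genes were higher, with medians of 0.089 and 0.032. With either of the other scalings all 7 meningeal and 13 neural genes were higher in males. The neural minus meningeal difference of medians was −0.62 in females, −0.47 with the meningeal score in the model, and −0.058 in males. The classes were assigned with earlier results of these data known, so the counts are a description.

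Imprinted genes beyond the 36 gave no calls. Of 46 further imprinted genes 45 were in the table and 29 were expressed enough to be tested over both sexes, and 0 passed in either sex or over both. The smallest unadjusted p-values in males were those of the potassium channel gene Kcnk9 (−0.73 ± 0.18, adjusted p = 0.304), Rasgrf1, a Ras exchange factor (0.65 ± 0.26, adjusted p = 0.336), and A330076H08Rik (−0.61 ± 0.25, adjusted p = 0.345). In females they were those of Osbpl5 (−0.38 ± 0.14), the amino acid transporter gene Slc38a4 (0.56 ± 0.24) and Pon3 (0.62 ± 0.28), with adjusted p = 0.999 for each. Slc38a4 also had a slope of 0.68 ± 0.17 on the meningeal score (adjusted p = 0.128), and Airn, the noncoding RNA that overlaps Igf2r, one of 0.53 ± 0.19 (adjusted p = 0.479).

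The factors that keep imprints gave no calls either, with 13 of 16 tested. In males 11 of 13 lay below 0, with a median of −0.11 that is close to the median over all genes, and Zfp445 was the lowest by p (−0.34 ± 0.11, adjusted p = 0.304). In females 8 of 13 lay below 0, with a median of −0.013. Of the 15 genes of IGF signalling 14 were tested and 0 passed. In females 13 of 14 were higher in AVP, with a median of 0.14, against 5578 of all 15132 genes. In males 4 of 14 were higher, with a median of −0.086, against 4036 of all 15271 genes. The female differences were led by the binding protein genes Igfbp4 (0.27 ± 0.11), Igfbp6 (0.51 ± 0.21) and Igfbp3 (0.33 ± 0.14), with adjusted p = 0.999 for each. Igfbp6 also had a slope of 0.94 ± 0.23 on the meningeal score (adjusted p = 0.0890) and Igfbp4 one of 0.33 ± 0.10 (adjusted p = 0.232), and the meningeal score separates the female groups as given above.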

How the data were processed

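Stranded mRNA libraries were prepared from E18 dorsal forebrain. The deposited values are TPM per transcript, which the authors made by trimming with Trim Galore 0.4.1, checking with FastQC 0.5.2 and pseudoaligning with kallisto 0.43.1 to a GENCODE transcriptome of GRCm38 with bias correction. The study left out 1 AVP female as an outlier, which is not analysed here. TPM of 133849 transcripts were added up to 53337 genes with the GENCODE M21 annotation, whose build is the same, and 404 transcripts without a gene there held 0.154 to 0.199% of the total. The TPM keep no read counts, so no depth or counting interval can be given.

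Tests used limma 3.58.1 in R 4.3.3, with a trend, on log2(TPM + 0.5), for genes that reached 1 TPM in 50% or more of the libraries of a comparison, with Benjamini-Hochberg adjustment over all of these genes and a threshold of 0.05. Fold changes are on that scale and understate the change of low genes. Scores are the mean log2(TPM + 0.5) of a marker list, and slopes were fitted over all 15 libraries with group terms. Within each sex, Igf2, H19 and Grb10 were also compared by exact permutation of the libraries (two-sided, on the absolute difference of means). The script was tested on simulated data. The members and lists were chosen with earlier results of these data known. Values in every library are given for Igf2, H19, Grb10 and up to 6 members per comparison with the smallest unadjusted p, and, of the other lists, up to 3 genes by the same rule. 1 dorsal forebrain marker is not reported here. Errors are SE unless named otherwise. Promoter windows are from RefSeq, and members without one there are Peg13, H19, Impact, Trappc9, Cdkn1c, Peg10, Rtl1 and Sgce. Alternatives were another scaling, filter, pseudocount or threshold, no trend, the run of label numbers as a term, each run alone (added after seeing the data), each library left out, 1 fit of all libraries and tissue scores as covariates.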

Additional observations from a re-analysis of the deposited data

Results flagged for a closer look

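Within the groups of 4 libraries, 4 values stood farther from the rest of their group than Dixon's 95% limit, out of 96 groups of a gene and 4 libraries, where chance alone flags about 1 in 20. Magel2 in AVP male 1 was at 1.37 TPM, against 2.23 to 2.37 TPM in the other AVP males. Cdkn1c in AVP male 8 was at 123 TPM, against 166 to 173 TPM. Asb4 in saline female 15 was at 0.679 TPM, against 1.46 to 1.59 TPM in the other saline females. Peg13 in saline female 14 was at 90.4 TPM, against 81.6 to 82.9 TPM.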

How the results depend on the processing

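The count of imprinted genes past the threshold in each comparison stayed at its reported value under the alternatives, with these exceptions. Over both sexes it was 3 in the first run of label numbers alone. For the meningeal slope it was 2 as reported, 3 with quantile normalization and without group terms, 1 in the first run, 0 in the second run and 0 without saline male 4 and saline female 15; leaving out each library in turn gave 0 to 2, the 0 without saline male 4. The maternal minus paternal difference of medians in males, −0.25 as reported, was −0.060 in the second run, −0.073 with 5 mixed genes added to the maternal class, and −0.30 to −0.13 when each library was left out. In females, 0.16 as reported, it was −0.22 with at least 5 TPM in every library, −0.20 with the meningeal score in the model, and −0.077 to 0.22 when each library was left out, the values below 0 being −0.077 without AVP female 10 and −0.040 without AVP female 11. The neural minus meningeal difference of medians was −0.27 to 0.13 in males and −0.74 to −0.53 in females when each library was left out; in males it turned positive without saline male 4. Among single genes the direction turned for Meg3 in males in the second run (0.013) and for Peg13 in males with median-of-ratios scaling (0.010). Scaling also turned the female paternal median and the count of meningeal genes higher in males, as given with those counts. The cause of these changes was not tested. No paired analysis was possible because no label says which libraries were littermates. With 3 or 4 libraries a group and no counts, small differences could not be resolved.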
